A study of Homo sapiens with 6 samples.

Results

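The MCM helicase family was followed in H460 cells exposed to fluoxetine. H460 is an established human lung cancer cell line, derived from a large cell carcinoma, and fluoxetine is an antidepressant that blocks serotonin reuptake. The study sequenced RNA from 3 control libraries and from 3 libraries of cells exposed to the drug at 20 µM during 24 h, all from wild-type (WT) cells, as a search for transcripts that differ after the drug. Both groups were grown in the same serum-containing medium, the labels do not say whether the control cells received a vehicle, and they do not say that the 3 libraries came from separate cultures, so the p-values measure the spread between these libraries, which may be technical. The family was taken by name and comprised 8 of the 31762 genes with a count, namely the MCM2, MCM3, MCM4, MCM5, MCM6 and MCM7 subunits, MCM10 and the MCM-binding protein MCMBP. Each symbol matched 1 row, and all 8 genes passed the filter on low counts that left 15646 genes for testing.

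Before a cell can copy its DNA, the origin recognition complex, CDC6 and CDT1 load the MCM2 to MCM7 subunits onto DNA in G1 phase as a pair of joined rings. In S phase, kinases and loading factors attach CDC45 and the GINS complex to each ring, and the resulting helicase unwinds the DNA ahead of the polymerases. MCM10 takes part in switching the loaded helicase on, and MCMBP binds free MCM subunits. The genes of this machinery are well-known targets of E2F transcription factors, are transcribed most in cells that enter the cycle, and are widely used as markers of proliferation in tumours.

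The libraries held 16157507 to 27823667 counts on genes, the fluoxetine libraries all below the control libraries. At these depths 3 counts correspond to 0.108 to 0.186 counts per 1000000 (CPM), and the member genes held 876 to 13641 counts each, so counting error was small for them. Control replicate 3 stood apart within its group, where a chi-square statistic over genes, divided by its degrees of freedom, was 24.2 against control replicate 1 and 13.7 against control replicate 2, while control replicates 1 and 2 gave 6.10 and the fluoxetine pairs gave 3.72 to 11.9. That statistic was taken at unequal depth and rises with depth where replicates differ by more than counting error. Control replicate 3 was the deepest library, so its values and those of the fluoxetine pairs are not on equal terms. Mitochondrial transcripts took 8.13% to 8.89% of counts in all 6 libraries. Of the epithelial markers, KRT8, KRT18 and KRT19 were abundant, with 286 CPM for KRT18 in fluoxetine replicate 1 as the lowest of their values, while EPCAM reached at most 0.573 CPM and CDH1 at most 0.0607 CPM, and the lung lineage markers NKX2-1 and SFTPC summed to at most 0.454 CPM in any library. The leukocyte marker PTPRC stayed at or below 0.104 CPM, and the summed endothelial markers PECAM1 and VWF at or below 0.182 CPM. KRT18 fell (log2 fold change −0.72, edgeR adjusted p = 0.00162), and of 3 fibroblast markers COL3A1 fell (−0.53, edgeR adjusted p = 0.0145, or 0.0855 without fluoxetine replicate 1), with list sums of 25.8 to 28.3 CPM in control and 20.1 to 21.3 CPM in fluoxetine libraries. The part of these markers in the MCM results was not tested.

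All 8 MCM transcripts were less abundant after fluoxetine, and in each of them every fluoxetine library lay below every control library. Such a separation in the lower direction was seen for 14.4% of all tested genes. In the edgeR quasi-likelihood fit, with p-values adjusted over all tested genes by the Benjamini-Hochberg method, 6 of the 8 fell (MCM3, MCM4, MCM5, MCM7, MCM10 and MCMBP), none rose, and MCM2 and MCM6 did not pass. For comparison, 5.32% of all tested genes were called lower and 7.76% higher. The changes were moderate, leaving 69.7% to 88.1% of the control level, and no member reached a fold of 2, while 1.39% of all tested genes were called with at least that fold in either direction. The median log2 fold change was −0.36 over the members and 0.03 over all tested genes. Such bulk libraries cannot tell apart fewer cells that transcribe these genes and less RNA of them per cell. Without fluoxetine replicate 1 only MCM3 and MCM5 stayed called, with adjusted p-values of 0.0639 for MCM4, 0.0606 for MCM7, 0.0765 for MCM10 and 0.0852 for MCMBP, while without control replicate 3 the number of members called lower was 7. The lower calls over all genes shifted as well, from 833 of 15646 in the main fit. They were 163 of 16154 without fluoxetine replicate 1 and 2006 of 15795 without control replicate 3.

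The summed abundance of the 6 ring subunits gives the scale of the change. It was 1516, 1543 and 1474 CPM in control replicates 1 to 3 and 1147, 1213 and 1186 CPM in fluoxetine replicates 1 to 3. The means were 1511 ± 35.0 CPM and 1182 ± 33.3 CPM (SD, n = 3 each), so that 78.2% of the control level remained and the gap between the groups was several times the spread within them.

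**Figure D1:**
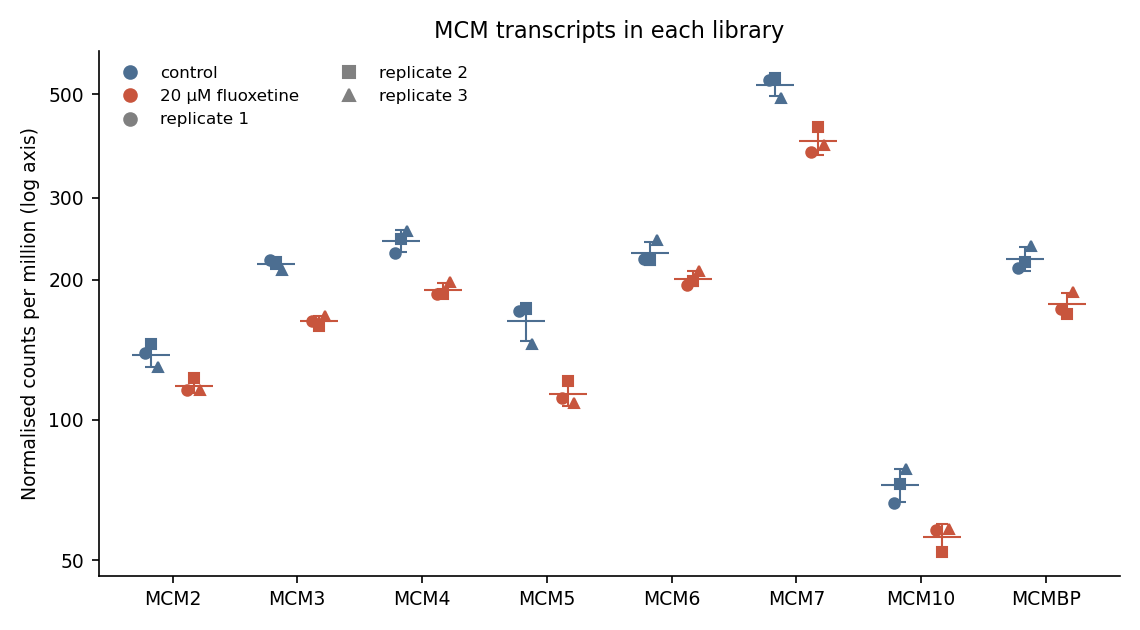
Abundance of the 8 MCM transcripts in each library, as TMM-normalised CPM on a log axis, for control (blue) and fluoxetine (red) libraries, with horizontal bars for the group mean and error bars for the SD over 3 libraries. For every gene the 3 fluoxetine points lie below the 3 control points, with MCM7 the highest of the genes and MCM10 the lowest.

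MCM4, MCM6 and MCM7 form the part of the ring that was first found to unwind DNA on its own. MCM7 (ENSG00000166508, chr7:100092728-100101940, minus strand, GRCh38) was the most abundant member, at 537, 541 and 491 CPM in control replicates 1 to 3 and 375, 426 and 389 CPM in fluoxetine replicates 1 to 3. The lowest control library, replicate 3, still lay above the highest fluoxetine library, replicate 2. Its level fell from 523 ± 27.7 to 397 ± 26.0 CPM (SD, n = 3), and its log2 fold change was −0.40 with a standard error of 0.08 (edgeR adjusted p = 0.00763). At its start, 392 exon bases are shared with AP4M1 on the opposite strand, a gene with a mean of 236 counts a library, and whether counting used the strand is not given in the sources used here. MCM4 (ENSG00000104738, chr8:47960185-47978160, plus strand) was at 228, 245 and 254 CPM in control replicates 1 to 3 and at 186, 186 and 198 CPM in fluoxetine replicates 1 to 3. It fell to 78.4% of control, by 0.35 on the log2 scale (standard error 0.07, edgeR adjusted p = 0.0105). MCM6 (ENSG00000076003, chr2:135839626-135876426, minus strand) changed least of the 8. Its control libraries held 221, 220.4 and 243 CPM and its fluoxetine libraries 195, 198 and 209 CPM. The group means were 228 and 201 CPM, with an SD of 12.9 CPM in control. The distance from the lowest control library to the highest fluoxetine library was smaller than that SD. The log2 fold change of −0.18 had a 95% interval of −0.34 to −0.03 and an adjusted p of 0.119 by edgeR, and MCM6 was therefore not called.

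MCM3 and MCM5 sit side by side in the ring, and MCM2 and MCM5 form the gate through which DNA enters it. MCM5 (ENSG00000100297, chr22:35400063-35425430, plus strand) had the largest fall of the family. Its control replicates 1 to 3 were at 171, 173 and 146 CPM and its fluoxetine replicates 1 to 3 at 112, 121 and 109 CPM. Control replicate 3 was lowest of its group and still above all fluoxetine libraries. The log2 fold change was −0.52 with a 95% interval of −0.71 to −0.33 (edgeR adjusted p = 0.00405), which placed MCM5 at percentile 3.58 of all tested genes ordered from the largest fall. MCM3 (ENSG00000112118, chr6:52264009-52284881, minus strand) varied least among replicates. It was at 220.0, 218 and 210.2 CPM in control and at 163, 159 and 167 CPM in fluoxetine libraries, and fell by 0.41 on the log2 scale (standard error 0.07, edgeR adjusted p = 0.00333). MCM2 (ENSG00000073111, chr3:127598223-127622436, plus strand) held 139, 145 and 129.6 CPM in control and 116, 123 and 116 CPM in fluoxetine libraries. Its highest fluoxetine library came close to its lowest control library. The log2 fold change was −0.22 (95% interval −0.39 to −0.06, edgeR adjusted p = 0.0714), and MCM2 was not called. MCM2 shares 45 exon bases with TPRA1 and 1113 with the antisense gene AC023593.1, both on the other strand. AC023593.1 was not among the 31762 genes with a count.

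Both members outside the ring fell as well. MCM10 (ENSG00000065328, chr10:13161554-13211104, plus strand) was the least abundant member, at 66.4, 72.8 and 78.4 CPM in control replicates 1 to 3 and 58.2, 52.1 and 58.2 CPM in fluoxetine replicates 1 to 3. It fell by 0.37 on the log2 scale (standard error 0.09, edgeR adjusted p = 0.0233), and also lost its call without control replicate 2 (adjusted p = 0.0668). MCMBP (ENSG00000197771, chr10:119829404-119892556, minus strand) was at 212, 218 and 236 CPM in control and 173, 169 and 189 CPM in fluoxetine libraries. The groups did not overlap, and the gene fell to 79.7% of control (log2 fold change −0.33, standard error 0.08, edgeR adjusted p = 0.0188).

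In control replicate 3, the deviation of the members from their group mean divided them by GC content. Of the 4 members whose longest transcript is over 50% GC (MCM2 58.1%, MCM7 57.6%, MCM5 57.0% and MCM3 51.6%), all 4 were below the group mean in that library, MCM5 by the most, with a deviation of −0.16 in log2 CPM. Of the 4 members under 50% (MCM4 48.5%, MCM10 43.3%, MCM6 43.1% and MCMBP 42.2%), all 4 were above it there, MCM10 by the most, with a deviation of 0.11. In fluoxetine replicate 3, MCM2, MCM5 and MCM7 were likewise below their group mean and the 4 members under 50% GC above it. Fluoxetine replicate 2 showed the opposite signs for these genes. In both of these libraries MCM3 was on the side of the members under 50% GC. The median of the tested genes was 47.3% GC. The fit was then repeated with the trend in GC content removed from each library, a choice made after seeing the data. That trend was taken from deviations from the mean over all 6 libraries, not from the group means. A difference between the groups that follows GC content was therefore removed along with differences between replicates. All 8 members were called lower in that fit, MCM2 with a log2 fold change of −0.19 (edgeR adjusted p = 0.0484) and MCM6 with one of −0.24 (adjusted p = 0.0156). That setting also changed the calls over all genes, to 1694 lower and 1623 higher from 833 lower and 1214 higher, so the lower share of calls rose from 40.7% to 51.1%.

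**Figure D2:**
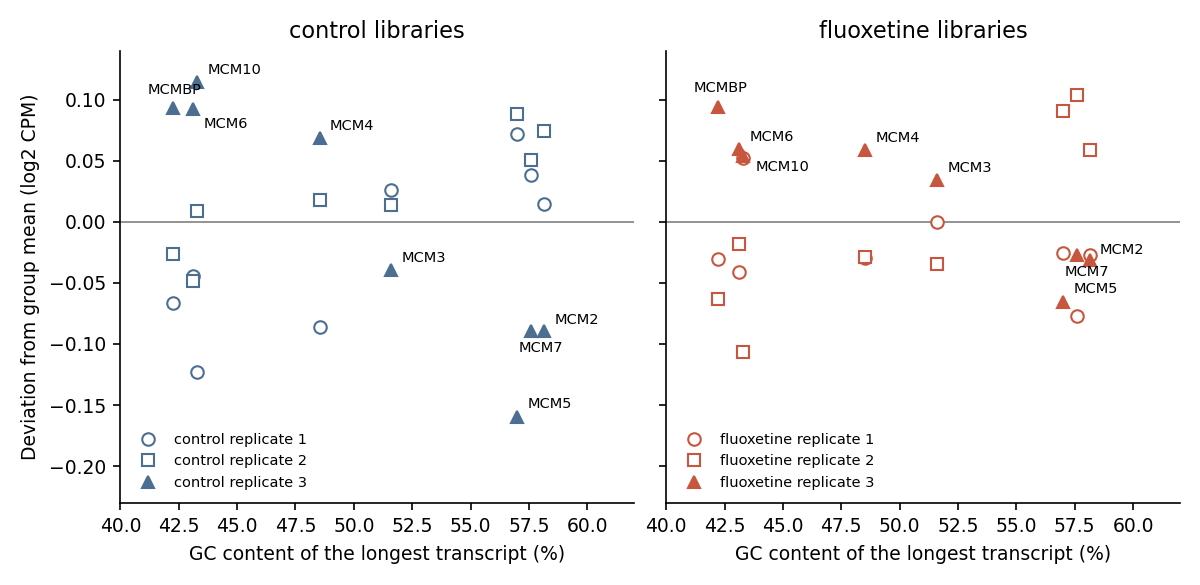
Deviation of each library from its group mean in log2 CPM against the GC content of each gene's longest transcript, for the 3 control libraries (left) and the 3 fluoxetine libraries (right), with replicate 3 as filled triangles and labelled by gene. In control replicate 3 the 4 genes over 50% GC lie below 0 and the 4 under 50% GC lie above 0.

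**Figure D3:**
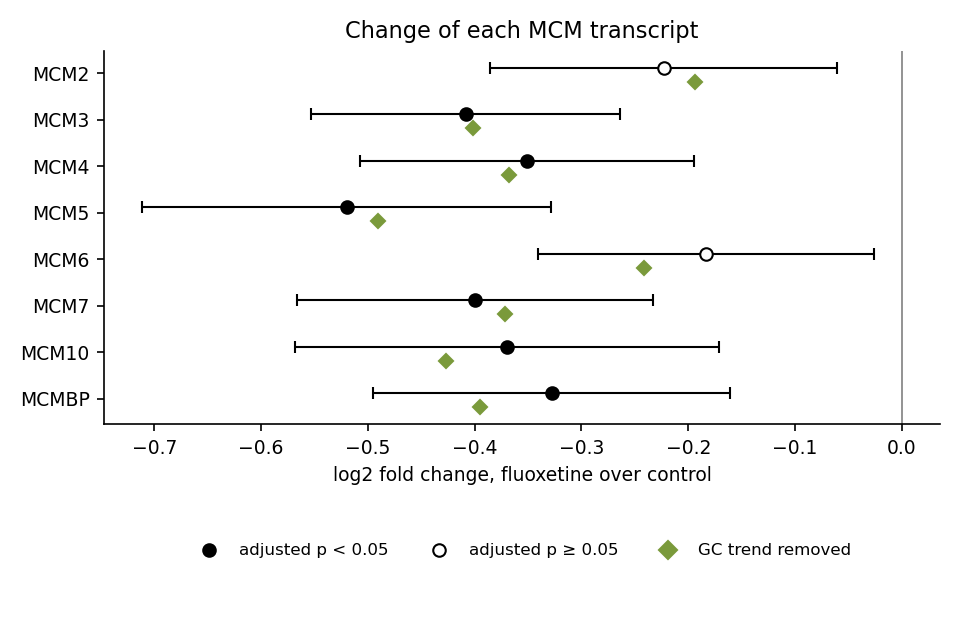
Log2 fold change of each member, fluoxetine over control, with its 95% interval (circles, filled where the adjusted p is under 0.05), and the value with the GC trend removed (green diamonds, all under 0.05). All intervals end below 0, and MCM2 and MCM6 are the open circles nearest to it.

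MCM subunits act in equal numbers in the ring, so their transcripts were also compared with each other, per kilobase of exon. In control cells MCM7 led with 119 ± 6.31 CPM per kb, followed by MCM3 with 59.2 ± 1.43 and MCM6 with 55.4 ± 3.13, whose libraries overlapped. MCMBP (37.0 ± 2.15) and MCM4 (34.7 ± 1.88) overlapped as well, and MCM2 (28.2 ± 1.60), MCM5 (22.2 ± 2.07) and MCM10 (13.3 ± 1.09 CPM per kb) followed in that order, each apart from the next. After fluoxetine the order was the same except that MCM6 (48.8 ± 1.79) and MCM3 (44.6 ± 1.06) changed places and no longer overlapped. MCM7 was at 90.4 ± 5.93, MCMBP at 29.5 ± 1.72, MCM4 at 27.2 ± 0.967, MCM2 at 24.1 ± 0.855, MCM5 at 15.5 ± 0.884 and MCM10 at 10.3 ± 0.645 CPM per kb, all over 3 libraries, and only MCMBP and MCM4 overlapped. The order in the middle depends on the length used. With the length of the longest principal transcript in place of all exons, MCM5 was at 46.2 ± 4.31 CPM per kb in control cells and stood above MCM2 at 38.1 ± 2.17. At that length these genes also changed places after fluoxetine. MCM2 was then at 32.6 ± 1.16 and MCM5 at 32.2 ± 1.83 CPM per kb, with overlapping libraries.

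The make-up of the ring's transcripts moved by at most 2.09 percentage points, for MCM6. MCM7 gave 37.4 ± 1.21% of the summed per-kilobase level of the 6 subunits in control and 36.0 ± 1.48% in fluoxetine libraries, and MCM4 10.9% in both. MCM6 went from 17.4 ± 1.37% to 19.5 ± 0.721% and MCM2 from 8.82 ± 0.311% to 9.62 ± 0.220%, while MCM5 went from 6.96 ± 0.509% to 6.18 ± 0.278% and MCM3 from 18.6 ± 0.207% to 17.8 ± 0.756% (SD, n = 3). The log2 ratio of each member to the mean of the other ring subunits was then compared between the groups by a two-sided exact permutation test, which with 3 against 3 libraries cannot give a p below 0.1. That ratio for MCM2 was −1.04, −0.996 and −1.11 in control and −0.89, −0.89 and −0.95 in fluoxetine libraries, without overlap, a difference of 0.14. MCM3 was the other member without overlap, with a difference of −0.07, and for both the exact p was 0.1, or 0.32 after adjustment over the 8 ratios. MCM6 differed by 0.20 and MCM5 by −0.18 (exact p = 0.2 each, adjusted p = 0.32), MCM7 by −0.08 (exact p = 0.2), MCM10 by −0.02 (exact p = 0.9), MCMBP by 0.02 and MCM4 by −0.0023 (exact p = 1 each). Since this exact test could not reach 0.05, its p-values do not bear on whether the members changed by equal amounts.

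Promoter sequences were examined because the members moved in one direction. RefSeq windows (GRCh38.p14, from 250 bases before the gene's start to 50 after it) were matched by symbol for 6 of the 8 members, as 9 windows. E2F sites were searched on both strands as the octamers TTTCCCGC, TTTGGCGC, TTTCGCGC and TTTGCCGC and as the core GCGGGAA, whose reverse complement lies within the first octamer. At least 1 of them was present for 5 of the 6 genes (MCM2, MCM3, MCM6, MCM7 and MCMBP) and in 6 of the 9 windows, or 66.7%, against 8.08% of all 35116 windows. An octamer was present in 5 of the 9 windows against 3.31% of all. CCAAT was present in 6 of the 9 against 34.6%, and TTTGAA or TTCGAA, the letters of the cell cycle homology region, in 1 against 16.4%. The following windows are shown because they set the letters beside the change, with E2F matches in capitals: MCM3 and MCM7 fell and hold matches, MCM6 holds the most octamers and was not called, and MCM10 fell and holds none.
MCM3 (chr6:52284693-52284992, minus strand): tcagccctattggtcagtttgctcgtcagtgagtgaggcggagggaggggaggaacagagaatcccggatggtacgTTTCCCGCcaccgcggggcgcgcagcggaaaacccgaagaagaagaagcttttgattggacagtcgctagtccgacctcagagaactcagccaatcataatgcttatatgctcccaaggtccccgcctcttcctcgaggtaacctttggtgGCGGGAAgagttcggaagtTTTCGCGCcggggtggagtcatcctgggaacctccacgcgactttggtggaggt
MCM6 (chr2:135876394-135876693, minus strand): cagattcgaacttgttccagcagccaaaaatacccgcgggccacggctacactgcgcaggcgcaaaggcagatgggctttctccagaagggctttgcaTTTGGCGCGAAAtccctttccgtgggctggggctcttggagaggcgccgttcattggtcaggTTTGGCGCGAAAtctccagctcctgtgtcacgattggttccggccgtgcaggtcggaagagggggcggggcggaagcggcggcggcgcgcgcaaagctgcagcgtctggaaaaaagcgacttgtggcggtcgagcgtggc
MCM7 (chr7:100101348-100101647, minus strand): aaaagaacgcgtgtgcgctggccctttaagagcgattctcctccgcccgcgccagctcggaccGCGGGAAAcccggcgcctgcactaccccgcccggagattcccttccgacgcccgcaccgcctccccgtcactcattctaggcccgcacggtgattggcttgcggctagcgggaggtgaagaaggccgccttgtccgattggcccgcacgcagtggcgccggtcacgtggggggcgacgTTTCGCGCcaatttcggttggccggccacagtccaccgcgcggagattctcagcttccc
MCM10 (chr10:13161308-13161607, plus strand): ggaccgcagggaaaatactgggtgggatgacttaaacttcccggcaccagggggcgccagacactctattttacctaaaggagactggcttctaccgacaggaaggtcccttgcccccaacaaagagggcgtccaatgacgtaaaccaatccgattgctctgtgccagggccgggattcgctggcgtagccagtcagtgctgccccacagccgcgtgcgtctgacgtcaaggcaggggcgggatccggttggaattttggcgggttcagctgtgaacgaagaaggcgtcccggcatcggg

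In the MCM6 window the letters TTTGGCGCGAAA occur at 2 places, each a pair of octamers that overlap on opposite strands, at positions −152 to −141 and −90 to −79, counted from the gene's start as 1. One octamer of MCM3 spans the start itself, from −4 to 4, and another lies at −174 to −167. In the MCM7 window, 1 of 3 for that gene, octamers lie at −187 to −180 and at −9 to −2, and the window reaches into AP4M1 on the other strand. Within the MCM2 window, 2 overlapping octamers on opposite strands lie between positions 3 and 14. Among partner genes with a window, any of the E2F letters were present for 4 of 9 loading factors, 5 of 9 activation factors and 15 of 24 replisome factors. A match of letters is a description of the sequence, and no match says only that these letters are not in the window.

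The partners were taken from lists of general knowledge, chosen with earlier results of these data known. The genes that load the ring come first. Of 9 loading factors, 4 fell, none rose and 5 did not pass, with a median log2 fold change of −0.26. Among all tested genes, 5.32% were called lower and 7.76% higher. ORC1, the largest subunit of the origin recognition complex, was at 62.7, 65.4 and 72.8 CPM in control and 45.2, 45.1 and 50.8 CPM in fluoxetine libraries, a log2 fold change of −0.51 (edgeR adjusted p = 0.00582). CDC6, the ATPase that recruits the ring to the complex, fell by 0.34 (adjusted p = 0.0112), and geminin (GMNN), the inhibitor of CDT1, fell by 0.43 (adjusted p = 0.0197). Without fluoxetine replicate 1 neither CDC6 (adjusted p = 0.0602) nor GMNN (0.0924) was called, and GMNN also lost its call without control replicate 2 (0.0541) or fluoxetine replicate 3 (0.0782). CDT1 itself, which brings the MCM ring to the origin, was at 50.03, 47.0 and 22.4 CPM in control replicates 1 to 3 and at 26.5, 31.5 and 17.7 CPM in fluoxetine replicates 1 to 3. Control replicate 3 lay among the fluoxetine libraries, and with a log2 fold change of −0.65 and a standard error of 0.28 CDT1 was not called (edgeR adjusted p = 0.156). It was called without control replicate 3 (−0.98, adjusted p = 0.00214), with the GC trend removed (−0.56, adjusted p = 0.0129) and without a filter on low counts (−0.69, adjusted p = 5.52e-07). The fourth call was ORC6 (−0.26, adjusted p = 0.0419), which was lost with library size alone as the scaling (adjusted p = 0.056) and in 4 of the 6 fits that left out a library, that is without control replicate 1 or 2 or fluoxetine replicate 1 or 3, and ORC4 alone in the list had a positive value (0.24, adjusted p = 0.0736, or 0.0403 without control replicate 3).

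Among the 13 factors that activate the helicase, 5 fell, none rose and 8 did not pass, with a median of −0.31. These calls stand beside 5.32% lower and 7.76% higher over all tested genes. CDC45, which joins the ring in the active helicase, was at 75.5, 72.0 and 74.3 CPM in control and 48.3, 54.1 and 51.8 CPM in fluoxetine libraries (log2 fold change −0.53, edgeR adjusted p = 0.00239). The GINS complex is its other partner. GINS4 fell by 0.67 (edgeR adjusted p = 0.00331), from 17.7 ± 0.501 to 11.1 ± 0.589 CPM, and GINS2 fell by 0.65 (adjusted p = 0.00281), from 53.9 ± 4.74 to 34.4 ± 2.84 CPM (SD, n = 3). GINS3 fell by 0.40 (edgeR adjusted p = 0.0215), while GINS1, at 57.1 ± 2.19 and 48.5 ± 1.09 CPM, was not called (−0.24, adjusted p = 0.0724). GINS3 and GINS1 were not tested against each other. The GINS3 call was lost without control replicate 2 (0.0639), fluoxetine replicate 1 (0.0827) or fluoxetine replicate 3 (0.0972), and GINS1 was called with RLE scaling (adjusted p = 0.0488), by DESeq2 (0.0448) and with the GC trend removed (0.00989). CDC7, the catalytic subunit of the kinase that phosphorylates the loaded ring, fell (−0.36, edgeR adjusted p = 0.0269) but lost its call without control replicate 2, fluoxetine replicate 1 or fluoxetine replicate 3 (adjusted p up to 0.0645), and DBF4, its activating subunit, was at 70.0 ± 0.605 and 68.7 ± 1.43 CPM (−0.03, adjusted p = 0.831).

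At the fork, 15 of 28 replisome genes fell, none rose and 13 did not pass, with a median of −0.33. RPA2, a subunit of the protein that coats single-stranded DNA, went from 82.7 ± 2.83 to 55.2 ± 2.004 CPM (log2 fold change −0.58, edgeR adjusted p = 0.00103). POLE3, an accessory subunit of polymerase epsilon, fell by 0.53 (adjusted p = 0.00117), and PCNA, the sliding clamp, fell by 0.46 (adjusted p = 0.00504). The partner lists together hold 78 tested genes, including other MCM-named, E2F and RB, deoxynucleotide synthesis and MCM7 miRNA genes, which are described below. Of these 78, 32 were called lower and 1, RBL2, higher, beside the 5.32% and 7.76% of all tested genes named above. Without fluoxetine replicate 1 the lower calls were 10, without fluoxetine replicate 3 they were 14 and without control replicate 2 they were 16, and with the GC trend removed they were 50. Over all tested genes the lower calls in those fits numbered 163, 324, 435 and 1694, in the same order. Of 4 further genes with MCM in their names, none passed in either direction. MCM8 and MCM9, which form a separate helicase used in recombination, had log2 fold changes of −0.26 (edgeR adjusted p = 0.135) and −0.23 (adjusted p = 0.237). Both were called lower with the GC trend removed (adjusted p = 0.00898 and 0.0451), and MCM8 also without a filter on low counts (0.0387). MCMDC2 and MCM3AP had positive values of 0.33 and 0.05 and overlapping groups, and the value of MCM3AP turned negative without control replicate 1, fluoxetine replicate 1 or fluoxetine replicate 3.

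**Figure D4:**
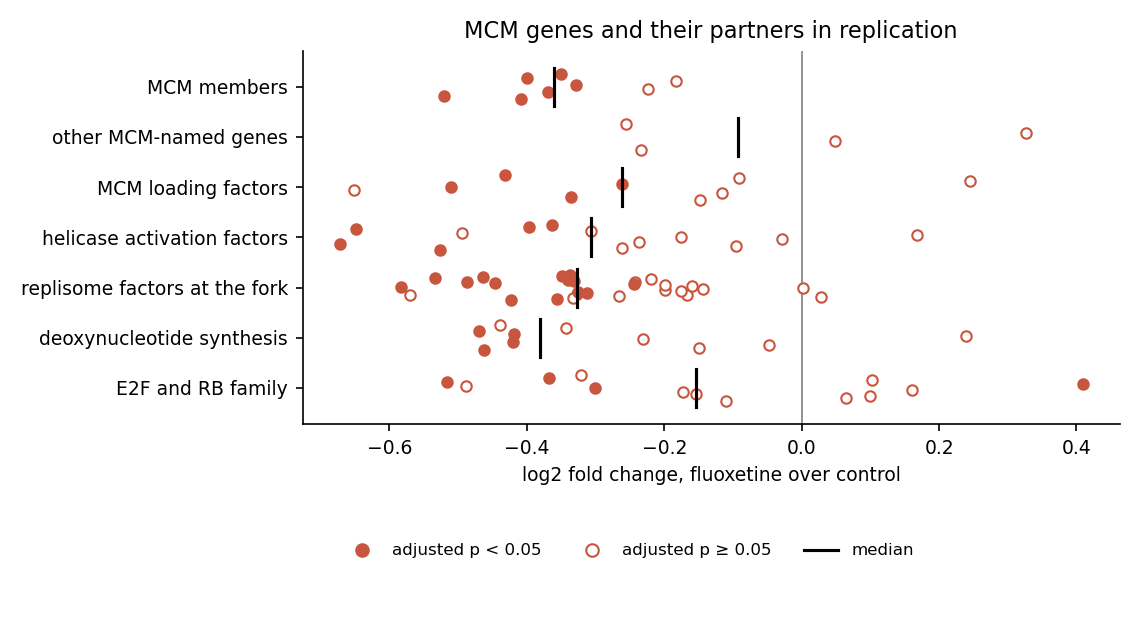
Log2 fold change, fluoxetine over control, of each tested gene of the MCM family and of 6 related lists, filled where the adjusted p is under 0.05, with a black bar at the median of each list. Medians of the MCM members (−0.36), deoxynucleotide synthesis genes (−0.38), activation factors (−0.31) and replisome factors (−0.33) lie close together. Loading factors (−0.26), the E2F and RB family (−0.15) and other MCM-named genes (−0.09) have smaller median falls. On the positive side 1 gene, RBL2, is called.

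Of 13 genes for E2F transcription factors, their partners and their RB-family inhibitors, 3 fell, 1 rose and 9 did not pass, with a median of −0.15. Over all tested genes 5.32% were called lower and 7.76% higher. E2F1, an activator of replication genes, was at 55.4, 56.3 and 48.2 CPM in control replicates 1 to 3 and 39.6, 36.3 and 35.8 CPM in fluoxetine replicates 1 to 3 (log2 fold change −0.52, edgeR adjusted p = 0.0064). The dimerisation partner TFDP1 fell by 0.30 (adjusted p = 0.0181) and E2F4, which acts mainly in repressor complexes, fell by 0.37 (adjusted p = 0.0220). Both calls were lost without control replicate 2, without fluoxetine replicate 1 and without fluoxetine replicate 3, with adjusted p-values up to 0.101 for TFDP1 and up to 0.115 for E2F4, whereas E2F1 kept its call in all 6 fits that left out a library. RBL2, which encodes the p130 pocket protein found with E2F4 in resting cells, rose from 27.1 ± 3.71 to 36.04 ± 2.49 CPM (0.41, edgeR adjusted p = 0.0433). The RBL2 call was lost when each library was thinned at random to the depth of the smallest, and in 5 of the 6 fits that left out a library, all but the one without control replicate 3.

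MCM7 is also the host of a miRNA cluster. The hairpins MIR25 (chr7:100093560-100093643), MIR93 (chr7:100093768-100093847) and MIR106B (chr7:100093993-100094074) lie on the same strand within intron 13 of the 15-exon transcript MCM7-201, and none of the 13 annotated MCM7 transcripts has an exon that overlaps them. Their main mature products are shown with the seed, bases 2 to 8, in capitals, since the seed groups them into separate families.
hsa-miR-25-3p: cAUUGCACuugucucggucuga
hsa-miR-93-5p: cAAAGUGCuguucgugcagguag
hsa-miR-106b-5p: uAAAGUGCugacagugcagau
The seed of hsa-miR-25-3p is shared by 6 mature human miRNAs in RefSeq, and that of hsa-miR-93-5p and hsa-miR-106b-5p by 8, among them hsa-miR-17-5p and hsa-miR-20a-5p. Reads on the MIR25 interval numbered 19, 24 and 34 in control replicates 1 to 3 and 3, 7 and 4 in fluoxetine replicates 1 to 3. In CPM this is 1.11 ± 0.217 and 0.277 ± 0.123 (SD, n = 3). The log2 fold change of −1.98, with a standard error of 0.40 (edgeR adjusted p = 0.0111), was the lowest of all tested genes. MIR25 passed the filter on low counts only through its control libraries, since each fluoxetine library held fewer than 10 reads. A row kept in this way is favoured to rank as a large fall, so the rank and the call are given as a description. The call was lost without fluoxetine replicate 1 (adjusted p = 0.0692). The change is larger than that of MCM7, but it rests on few reads, and the difference between the 2 genes was not tested. The library molecule was total RNA and the row counts reads on an intronic interval of 84 bases, so it measures neither the mature miRNA nor its activity. MIR93 had 1 read in control replicate 1 and 0 elsewhere and was not tested, and MIR106B was not among the 31762 genes with a count.

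**Figure D5:**
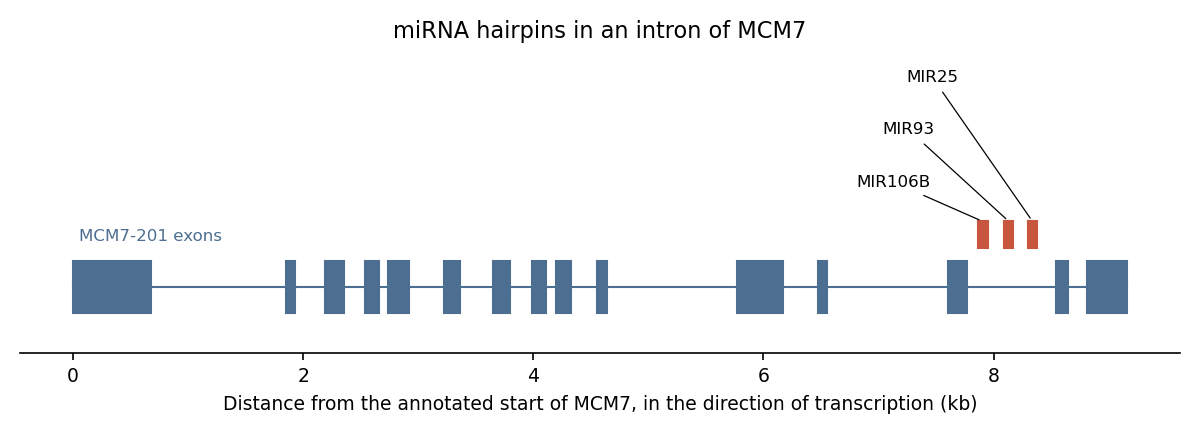
Exons of the transcript MCM7-201 (blue) and the hairpins MIR106B, MIR93 and MIR25 (red) by distance from the annotated start of MCM7 in kilobases, in the direction of transcription. The 3 hairpins lie together within intron 13, between exons 13 and 14 of 15.

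Genes whose abundance ran most closely with the mean of MCM2 to MCM7 were taken from 9889 tested genes with a mean of at least 10 CPM. They were HDAC1, a histone deacetylase (Pearson r = 0.9969 over 6 libraries), RCC1, the exchange factor of the GTPase Ran (0.9962), the tubulin gene TUBA1B (0.9957), the non-coding RNA SNHG16 (0.9954) and the phosphatase gene PTPN9 (0.9937). These r values are descriptions. All points share the library scaling and the split into 2 groups, and 16 genes exceeded 0.99. RCC1 fell from 179 to 116 CPM (log2 fold change −0.63, edgeR adjusted p = 0.000338), TUBA1B by 0.41 (adjusted p = 0.00318) and HDAC1 by 0.30 (adjusted p = 0.0248), whereas SNHG16 (−0.23, adjusted p = 0.0561) and PTPN9 (−0.14, adjusted p = 0.255) were not called. The HDAC1 call was lost without control replicate 2, fluoxetine replicate 1 or fluoxetine replicate 3 (adjusted p up to 0.122), and SNHG16 was called in 6 of its 15 alternatives, among them the fit without control replicate 3 (adjusted p = 0.0223) and that with the GC trend removed (0.0156). Among the members, r with the mean of the other ring subunits was 0.77 for MCM6 and up to 0.98 for MCM3 over all 6 libraries. Once each group's mean was removed it was 0.79 for MCM2 and 0.78 for MCM7, 0.36 for MCM5 and 0.08 for MCM3, and negative for MCM4 (−0.48), MCMBP (−0.44), MCM10 (−0.63) and MCM6 (−0.66). Apart from MCM3, whose r was small, the signs divide the members by GC content. These r values come from the same replicate deviations as above and are not a second observation of that division.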

How the data were processed

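Gene expression was measured by RNA sequencing (paired-end reads) in 3 control and 3 fluoxetine libraries of H460 cells. The authors deposited 1 table of raw read counts per gene and library, without normalization. Columns with their own log2 fold change and its raw and adjusted p-values were not used. The submitters' processing notes name fastp 0.20.0, HISAT2 2.1.0, HTSeq 0.10.0 and DESeq2 1.18.1. The strand setting of the counting is not given in the sources used here. Of the deposited genes, 31635 are in GENCODE 29 (GRCh38), 96.81% of them at the same position.

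For testing, edgeR 4.0.16 in R 4.3.3 was fitted to the counts (filterByExpr, TMM, glmQLFit and glmQLFTest, no covariate), with Benjamini-Hochberg adjustment over 15646 genes and a threshold of 0.05. CPM values are TMM-normalised, and per-kilobase levels divide them by the union of GENCODE exons. Ratios were tested by exact permutation in Python 3.11.15. The fitting script was tested on simulated data with planted changes.

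The members and lists were chosen with earlier results of these data known. Named were all members, up to 3 lower and 3 higher calls of each list by smallest p, the MCM7 miRNA genes, E2F1, CDC6, CDT1, CDC45 and the GINS subunits, and the 5 genes most correlated with the ring subunits. Of the genes that this rule covers, 1 is left out here. Other MCM-named genes, ORC4, ORC6, CDC7, DBF4, TK1, RRM2B and the marker genes were named after their values were seen. Alternatives were DESeq2 1.42.0, limma-voom (limma 3.58.1), RLE and library-size scaling, other filters, thinning to the smallest library, a replicate block and leaving out each library. Removing the GC trend (GC known for 99.71% of tested genes) and the principal transcript length were added after seeing the data.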

Additional observations from a re-analysis of the deposited data

How the results depend on the processing

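Each member was refitted under 15 alternatives, and all 120 log2 fold changes were below 0. MCM3 and MCM5 passed the threshold in every one. MCM2 passed without a filter on low counts (−0.26), by DESeq2 (−0.25), with the GC trend removed (−0.19), and without control replicate 3 or fluoxetine replicate 2, its values without 1 library lying between −0.30 and −0.23. MCM6 passed with the GC trend removed (−0.24) and in no other. Without 1 library, MCM4 lay between −0.43 and −0.35, MCM7 between −0.49 and −0.39, MCM10 between −0.46 and −0.34 and MCMBP between −0.40 and −0.31. The members called lower numbered 2 to 7 without 1 library.

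Partner genes called lower numbered 50 with the GC trend removed and 10 to 42 without 1 library, and those called higher 0 after thinning and 0 to 3 without 1 library. Over all genes, lower calls numbered 1516 without a filter, 1694 with the GC trend removed and 163 to 2006 without 1 library, and higher calls 409 to 1627. The lower share of calls was 40.7%, 52.1% without a filter and 51.2% by DESeq2. The cause of these shifts was not tested.

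The deviations of same-numbered libraries correlated with r = 0.03, 0.12 and 0.39 for replicates 1 to 3, not all over 0.1, so the numbers were not taken as pairs. Control replicates 2 and 3 correlated best with their own number and control replicate 1 with fluoxetine replicate 2 (r = 0.32). The replicate block gave 1787 lower and 2231 higher calls over all genes, 47 and 3 among the partners and 7 members, MCM2 included (−0.22, adjusted p = 0.0412). CDT1 (adjusted p = 5.01e-08), GINS1 (0.0464), SNHG16 (0.0414), MCM8 (0.024), ORC4 (0.0374) and RRM2B (0.0401) were called with it too.

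The log2 ratio of MCM4 to the other subunits changed sign to 0.0046 without length scaling and to 0.011 with the principal length, and without 1 library it ranged from −0.055 to 0.056. That of MCM10 ranged from −0.085 to 0.055 and that of MCMBP from −0.023 to 0.084 without 1 library. Of 553 refits of 37 further named genes, 550 kept their direction and 63 changed their side of the threshold. MCM3AP changed direction, with values from −0.077 to 0.14 without 1 library. None of the ratios could pass the exact test used, whose smallest p here is 0.1. With at least 10 counts in every library MIR25 was not tested, and DESeq2 gave it no adjusted p. Depth limits the MIR25 result, which rests on 3 to 34 reads a library, and not those of the members.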

Other observations

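Deoxynucleotide synthesis supplies the fork that the MCM ring opens. Of 10 genes of that list, 4 fell, none rose and 6 did not pass, with a median log2 fold change of −0.38. The shares over all tested genes were 5.32% called lower and 7.76% called higher. RRM2, the regulated subunit of ribonucleotide reductase, was at 337, 328 and 349 CPM in control replicates 1 to 3 and 231, 262 and 240.1 CPM in fluoxetine replicates 1 to 3 (−0.47, edgeR adjusted p = 0.00273). DTYMK, the thymidylate kinase, fell by 0.42 (edgeR adjusted p = 0.0349), a call lost without control replicate 1 (0.0706) or 2 (0.107) and without fluoxetine replicate 1 (0.138) or 3 (0.117). The thymidine kinase TK1 was called as well (−0.46, edgeR adjusted p = 0.0403) although its groups overlapped, control replicate 3 at 86.4 CPM and fluoxetine replicate 2 at 88.0 CPM, and the TK1 call was lost by limma-voom (adjusted p = 0.0522) and without the same 4 libraries. RRM2B, the p53-inducible subunit of the reductase, had a positive value that was not called (0.24, edgeR adjusted p = 0.159) except without control replicate 3 (0.32, adjusted p = 0.0213) and with the replicate block.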
